A study of Mus musculus with 12 samples.

Results

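The genes described here were close to silent in mouse bone marrow-derived dendritic cells (BMDCs) and were read at a clear level once the DNA-binding protein CTCF had been depleted. They were chosen by the measured values. A gene was taken when its expected count was at most 8 in each of 3 control libraries (WT) and at least 30 in each of 3 CTCF-depleted libraries (KO). An expected count is the estimated number of sequenced fragments assigned to a gene. Of 55335 genes in the files, 54 met these limits. The 3 among them whose symbols start with Hist, Col, Lam or Nid were dropped, and 51 genes remained.

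The cells came from C57BL/6 bone marrow cultured with GM-CSF for 6 days. WT cells had the genotype CreER, KO cells CreER;CTCF fl/fl, and 4-hydroxytamoxifen was added on the first day to delete the floxed alleles. The study's text describes it as used for KO cells and not for WT cells, while the labels name it for the cultures without setting a genotype apart. If only KO cultures received it, the drug and the loss of CTCF cannot be told apart. WTL and KOL are the same genotypes after 3 hours with 100 ng/ml of LPS, a bacterial product that activates dendritic cells through TLR4. The methods of the study give a Rosa26-driven CreER, present in every cell type of the culture, male and female mice of 8 to 12 weeks, CreER littermates as controls, and selection of floating CD11c+ cells. RNA was sequenced from 3 libraries per group. Total expected counts ran from 12769773 to 16586334 per library.

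CTCF binds DNA at many sites and, with cohesin, holds chromatin loops and marks the borders of the domains within which enhancers meet promoters. Loss of a border can place a promoter within reach of enhancers that normally serve other genes. Genes of the nervous system, epithelia or germ line are usually silent in myeloid cells such as dendritic cells. These sentences are background, and none of the measurements below test where CTCF was bound or how the chromatin was folded.

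Ctcf itself was read at expected counts of 1144, 1177 and 1128 in WT and 635, 585 and 557 in KO. With LPS it was read at 657, 754 and 701 in WTL and 524, 453 and 493 in KOL. Each library of a depleted group was below each library of its control group. The log2 fold change was -0.87 (SE 0.08, adjusted p = 3.94e-07) in KO against WT and -0.59 (SE 0.08, adjusted p = 2.39e-05) in KOL against WTL, from edgeR with its quasi-likelihood F-test, where p-values were adjusted over 14008 genes by the Benjamini-Hochberg method. The count covers the whole gene, so transcript from exons outside the deleted part is included. Of 10 dendritic and myeloid markers, all tested, 3 were called higher in KO than in WT (Itgax, Ptprc and Csf1r), 3 lower (H2-Ab1, Flt3 and Ccr7) and 4 were not called. Itgax and Cd74 had mean TPM (a level corrected for gene length and scaled to the same total in each library) of 366 and 5132 in WT and 606 and 4252 in KO, and H2-Ab1, Flt3 and Ccr7 of 1743, 3.65 and 319 in WT and 923, 0.843 and 195 in KO. The part of these differences in the results below was not tested.

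Libraries of a group were not equally alike. The KO libraries differed from each other by 1.7 to 1.92 times what sampling noise gives (chi-square per degree of freedom), the WT libraries by 3.33 to 4.75 times, the WTL libraries by 31.11 to 86.04 times and the KOL libraries by 8.78 to 31.38 times. WTL replicate 2 held 5.17% of its counts in ribosomal RNA genes, against 0.383% to 1.18% in the other libraries. The count of members called higher in KOL than in WTL, given below, was 49 with it and 46 without it. Without KOL replicate 2, the library farthest from the others of its group, it was 47. The study's methods call the replicates biological, and whether each came from its own mouse is not given in the sources used here, so p-values measure the spread between these libraries. In bulk RNA, more cells of a type and more RNA per cell cannot be told apart.

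Being chosen by the counts in WT and KO, all 51 genes are higher in KO by construction, and that difference carries no test. Of the 14008 genes tested, 17.3% were called higher in KO than in WT (adjusted p under 0.05 and fold above 1.3), a share from which nothing is read about the members. Their KO levels were modest. Mean TPM in KO ran from 0.59 to 379 with a median of 3.21, below the median of 10.5 over all tested genes, and 8 of the 51 exceeded that median. Protein-coding genes made up 44 of the 51 (86.3%, against 86.6% of the tested genes). The other 7 were 4 pseudogenes, 1 antisense gene, 1 processed transcript and 1 gene whose annotation still awaits experimental support. The members lay on 19 chromosomes.

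The libraries with LPS took no part in the choice, so KOL against WTL could be tested. The fit took its spread from all 12 libraries, among them the WT and KO libraries that chose the members. The SE and adjusted p of a member are thus not free of the choice. All 51 members passed the filter on low counts, since each is high in KO. In KOL against WTL, 49 of 51 were called higher (adjusted p under 0.05 and fold above 1.5), where 12.5% of the tested genes were called. With the 6 LPS libraries alone, 6 members had too few counts to be tested (Gm28037, H60b, Lrp3, Rtkn2, Rtn4rl1 and Trnp1), so they entered the fit through their KO counts, on which they were selected. Of the other 45, 43 were called higher in those 6 libraries, where 12.4% of the tested genes were called. Over all 51, 5 members had 0 in every WTL library and 12 had 1 to 3 counts over the 3. Members with so few WTL counts could pass the filter of the 6 libraries only through KOL, where they are high. A lower call was then hardly open to them. The shares of tested genes set beside the members, here and below, are therefore not like for like. Asap3 was called lower in the fit of all libraries, as were 12.5% of the tested genes, and Gm28037 was not called. In 48 of the 51, each KOL library exceeded each WTL library on the scale of TMM-normalized counts, against 21.9% of tested genes. This tally and the median that follows cover all 51. They include the 6 that entered the fit through their KO counts, and were not taken over the other 45 alone. The median log2 fold change of the members was 3.95, or 3.78 with the 5 genes at 0 in every WTL library set at a lower bound, and that of all tested genes was -0.04. The bound takes 3 counts over the 3 WTL libraries as the floor, and covers counting error only.

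**Figure D1:**
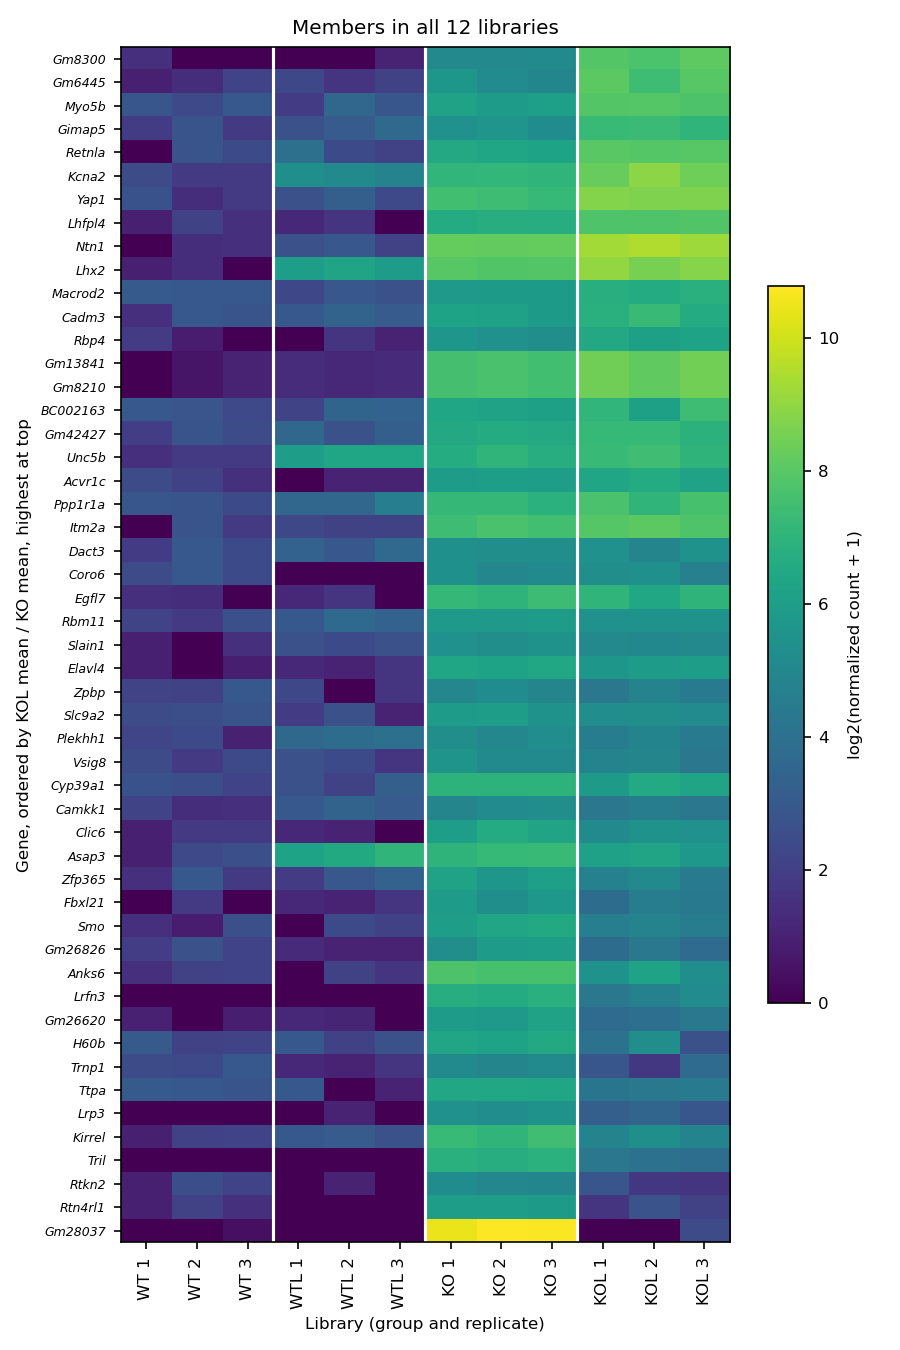
Colour gives log2(normalized count + 1) of the 51 members (one per line) in the 12 libraries (columns), ordered by the ratio of the KOL mean to the KO mean. WT columns are dark by selection, most WTL columns are dark as well, and the KOL columns range from brighter than KO at the top to nearly dark at the bottom.

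What LPS did to these genes within a genotype is described without a test, since WT and KO chose them. Here and below, libraries are ordered by normalized counts, while the counts printed for a gene are expected counts. In CTCF-depleted cells, each KOL library was above each KO library for 18 members (34.9% of tested genes) and below for 27 (36.2% of tested genes), and 6 overlapped. The ratio of the KOL mean to the KO mean ran from 1.31 to 7.20 among the 18, and from 0.06 to 0.79 among the 27 once Gm28037 is set aside. In control cells, each WTL library was above each WT library for 15 members (31.8% of tested genes) and below for 6 (33.4% of tested genes), mostly at counts under 15. Only Lhx2, Unc5b and Asap3 reached an expected count of 30 in every WTL library. KO and KOL share their genotype and WT and WTL theirs, and no pattern across the 4 groups was tested.

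**Figure D2:**
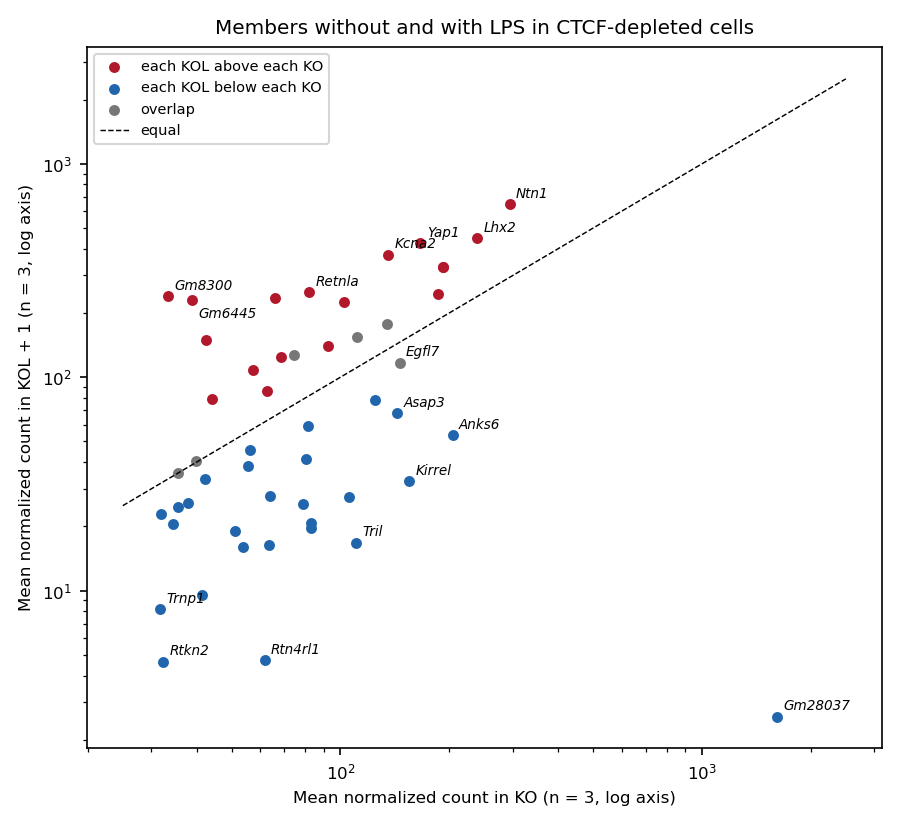
Each point is a member, with its mean normalized count in KO on the horizontal axis and in KOL, plus 1, on the vertical axis (both log axes, n = 3 libraries per group). Points above the dashed line, such as Ntn1 and Gm8300, were higher with LPS, and points far below it, such as Rtn4rl1 and Gm28037, lay close to 0.

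Among nuclear and RNA-binding regulators, Lhx2 is the one sequence-specific transcription factor. It encodes a LIM homeodomain protein of the forebrain, eye, olfactory neurons and hair follicle stem cells. Its expected counts were 1, 2 and 0 in WT, 47, 72 and 56 in WTL, 279, 236 and 259 in KO, and 481, 327 and 418 in KOL. The 4 groups did not overlap, and the order was WT, WTL, KO, KOL. In KOL against WTL, its log2 fold change was 2.74 (SE 0.15, adjusted p = 3.49e-09, edgeR). Lhx2 lies at chr2:38339281-38369733 on the plus strand (GRCm38, the build called mm10).

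Yap1, the transcriptional coactivator that the Hippo pathway restrains in epithelia and connective tissue, had 6, 2 and 3 counts in WT, 4, 8 and 4 in WTL, 203, 176 and 160 in KO, and 412, 357 and 388 in KOL. It was near silent in control cells with or without LPS, and each KOL library was above each KO library. The log2 fold change in KOL against WTL was 6.09 (SE 0.20, adjusted p = 4.23e-11, edgeR). Elavl4 encodes an RNA-binding protein of neurons that stabilises messenger RNAs. It was read at 1, 0 and 1 in WT, 1, 1 and 2 in WTL, 89, 79 and 95 in KO, and 47, 52 and 59 in KOL. Its log2 fold change in KOL against WTL was 5.13 (SE 0.35, adjusted p = 3.27e-08, edgeR), although each KOL library was below each KO library after normalization.

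The other 3 in this role were also lower in KOL than in KO. Rbm11, a splicing regulator of brain and testis, had 60, 58 and 64 counts in KO and 40, 39 and 42 in KOL. Trnp1, a nuclear protein of neural progenitors, had 37, 30 and 36 in KO and 6, 2 and 12 in KOL. With 1, 1 and 2 counts in WTL, Trnp1 entered the fit only through its KO counts, so its call against WTL rests on the choice of members, and it ended without KOL replicate 3 or WTL replicate 2. Zfp365, a zinc finger protein expressed in brain, had 81, 54 and 72 in KO and 24, 29 and 19 in KOL.

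Of 4 secreted proteins, 3 were higher in each KOL than in each KO library, as were 34.9% of tested genes. Ntn1, a guidance cue for growing axons that is also made by epithelia, had 0, 2 and 2 counts in WT, 4, 6 and 3 in WTL, 332, 301 and 319 in KO, and 580, 619 and 548 in KOL. No group overlapped another on the normalized scale. Against WTL, the log2 fold change in KOL was 6.98 (SE 0.20, adjusted p = 1.68e-11, edgeR). One of its receptors is also a member. Unc5b, found on endothelial cells and neurons, had 2, 3 and 3 counts in WT, 47, 75 and 77 in WTL, 112, 136 and 111 in KO, and 143, 152 and 121 in KOL. In control cells both lay higher in each WTL than in each WT library, at counts of 47 to 77 for Unc5b and 3 to 6 for Ntn1. The log2 fold change of Unc5b in KOL against WTL was 1.01 (SE 0.16, adjusted p = 1.48e-04, edgeR), and KOL overlapped KO.

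Retnla encodes a secreted protein of alternatively activated macrophages and airway epithelium. It was read at 0, 7 and 5 in WT, 11, 4 and 3 in WTL, 101, 84 and 80 in KO, and 237, 211 and 233 in KOL. Its mean TPM in KO, 19.8 ± 2.0 (SD, n = 3), led the members that neither overlap nor copy a more abundant gene. The log2 fold change in KOL against WTL was 5.14 (SE 0.35, adjusted p = 3.09e-08, edgeR). Egfl7, a secreted protein of endothelium, had 2, 2 and 0 counts in WT, 1, 2 and 0 in WTL, 161, 133 and 178 in KO, and 124, 75 and 119 in KOL. KOL overlapped KO, and neither overlapped WTL. With 3 counts in all over the WTL libraries, the KOL level was 101-fold higher, with a 95% counting interval from 34.4 to 495. Rbp4, the carrier of retinol in blood, normally made by liver and fat, had 56, 45 and 42 counts in KO and 83, 58 and 71 in KOL, against 3, 1 and 0 in WT and 0, 2 and 1 in WTL.

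As Egfl7 is a gene of endothelium, 4 endothelial markers were read beside it. Tek was under 0.01 TPM in every group mean, and Cdh5 had mean TPM of 0.133 in WT and 0.033 in KO and was not called. Kdr was called higher in KO (mean TPM 0.213 in WT and 0.440 in KO, log2 fold change 1.10, SE 0.31, adjusted p = 0.0106, edgeR), and Pecam1 was called lower. The 4 markers summed to 1.39, 1.39 and 1.20 TPM in the WT libraries and 0.67, 0.93 and 0.47 in the KO libraries. With LPS they summed to 7.09, 6.31 and 6.16 in WTL and 8.80, 10.13 and 8.82 in KOL, and Kdr was the most abundant. Their part in the result was not tested.

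Receptors and other surface proteins formed the largest role, with 13 members. All were called higher in KOL than in WTL (12.5% of tested genes), 3 of them (Rtn4rl1, H60b and Lrp3) after entering the fit through their KO counts. Their mean TPM in KO ran from 0.627 to 11.01. On normalized counts, each KOL library was above each KO library in Itm2a, Lhfpl4, Cadm3 and Acvr1c, 4 of the 13 (34.9% of tested genes). Each was below in 8 (36.2% of tested genes), and Unc5b overlapped. Itm2a, a membrane protein of cartilage, muscle and T cells on chromosome X, had 0, 7 and 3 counts in WT, 3, 3 and 3 in WTL, 193, 211 and 198 in KO, and 226, 225 and 210 in KOL. Lhfpl4, a partner of GABA receptors at inhibitory synapses, had 1, 4 and 2 in WT, 1, 2 and 0 in WTL, 110, 109 and 111 in KO, and 208, 192 and 212 in KOL. Both were far below either depleted group in the control cells, with or without LPS. Cadm3 is an adhesion molecule of neurons, with 84, 74 and 63 counts in KO and 107, 133 and 92 in KOL. Acvr1c is a receptor for TGF-beta family ligands in fat, with 69, 66 and 68 counts in KO and 77, 85 and 69 in KOL.

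The 8 surface proteins that were lower in each KOL than in each KO library were Tril, Lrfn3, Kirrel, Rtn4rl1, Smo, Lrp3, Vsig8 and H60b. Tril, a leucine-rich repeat protein that binds TLR4 and is best known from brain, was at 0 in all 6 control libraries, at 125, 107 and 126 in KO, and at 17, 13 and 13 in KOL. Its KOL level was at least 13.7-fold higher than WTL (adjusted p = 2.31e-05, edgeR), and its KOL mean was 0.143 of its KO mean. Lrfn3, a synaptic adhesion molecule, was likewise at 0 in all 6 control libraries, at 116, 103 and 122 in KO, and at 17, 22 and 33 in KOL, at least 23.0-fold higher than WTL. Kirrel, an adhesion protein of the kidney filter, had 176, 139 and 188 counts in KO and 25, 34 and 26 in KOL, against 5, 7 and 5 in WTL.

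Rtn4rl1 belongs to the Nogo receptor family of neurons. It had 1, 4 and 2 counts in WT, 0 in each WTL library, 73, 65 and 62 in KO, and 2, 5 and 3 in KOL. With 10 counts in KOL against none in WTL it passed the filter through its KO counts alone, and its call rests on the choice of members. Smo, the membrane protein that passes on the Hedgehog signal, had 70, 83 and 101 in KO and 22, 23 and 21 in KOL. Lrp3 of the LDL receptor family had 47, 39 and 48 in KO and 8, 9 and 6 in KOL, with 0 in each WT library. Vsig8, an immunoglobulin-domain protein of skin and hair, had 52, 35 and 36 in KO and 25, 25 and 17 in KOL. H60b, a ligand that marks stressed cells for natural killer cells through NKG2D, had 90, 79 and 99 in KO but 14, 33 and 5 in KOL, which overlapped the 5, 3 and 5 of WTL. Its call against WTL rests on the choice of members in the same way, and ended without KOL replicate 2 or WTL replicate 2.

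**Figure D3:**
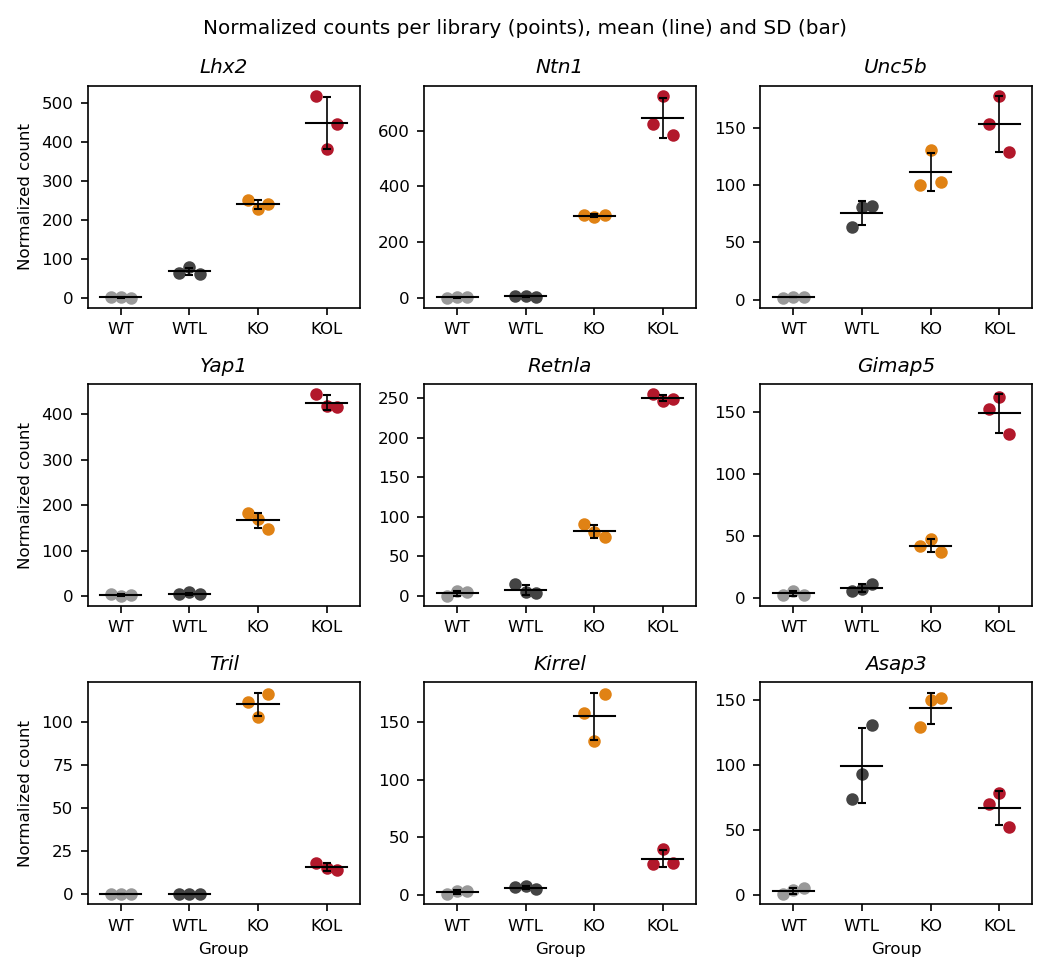
Normalized counts of 9 members in each library (points), with the group mean (line) and SD (bar), for WT, WTL, KO and KOL (3 libraries each, linear axes from 0). Lhx2, Ntn1, Yap1, Retnla and Gimap5 were highest in KOL, Tril, Kirrel and Asap3 in KO, and Asap3 was also read in WTL.

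The 4 members for channels and transport were all called higher in KOL than in WTL (12.5% of tested genes). Kcna2, a voltage-gated potassium channel of neurons, had 5, 3 and 3 counts in WT, 30, 32 and 26 in WTL, 150, 145 and 144 in KO, and 290, 409 and 311 in KOL. The groups did not overlap, in the same order as for Lhx2. Slc9a2, a sodium and proton exchanger of gut epithelium, had 67, 65 and 47 in KO and 35, 33 and 33 in KOL. Clic6, an intracellular chloride channel family member of secretory epithelia, had 73, 102 and 84 in KO and 31, 38 and 40 in KOL. Ttpa, the vitamin E transfer protein of liver, had 96, 87 and 85 in KO and 16, 16 and 19 in KOL.

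Among 10 enzymes and signalling proteins, 9 were called higher in KOL than in WTL (12.5% of tested genes), Rtkn2 among them through its KO counts. Ppp1r1a, an inhibitor of protein phosphatase 1, had 7, 7 and 5 counts in WT, 8, 10 and 22 in WTL, 158, 150 and 127 in KO, and 189, 113 and 184 in KOL. Cyp39a1, an oxysterol hydroxylase of liver, had 140, 131 and 132 in KO and 54, 82 and 72 in KOL. Macrod2, which removes ADP-ribose from proteins, had 8 counts in each WT library, 63, 61 and 62 in KO and 104, 84 and 105 in KOL. Gimap5, a GTPase needed for lymphocyte survival, had 4, 7 and 11 counts in WTL, 47, 50 and 40 in KO, and 142, 139 and 124 in KOL, where KOL lay above KO. Anks6, for a protein of the kidney's primary cilia, lay the other way, with 239, 209 and 213 counts in KO and 41, 64 and 36 in KOL.

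Asap3, a GTPase-activating protein that switches off Arf proteins, departed from the rest. It had 1, 5 and 6 counts in WT, 55, 86 and 123 in WTL, 144, 156 and 163 in KO, and 65, 67 and 49 in KOL. WTL lay above WT while KOL lay below KO, and WTL and KOL overlapped. Its log2 fold change in KOL against WTL was -0.59 (SE 0.23, adjusted p = 0.0498, edgeR). The call ended, by edgeR, without WTL replicate 2 (adjusted p = 0.0688), WTL replicate 3 (0.262), KOL replicate 1 (0.0848) or KOL replicate 3 (0.184). Over all alternatives tried its adjusted p in edgeR, DESeq2 or limma ran from 0.0111 to 0.868. The same opposite order, WTL above WT and KOL below KO, was seen in 7 members (1.04% of tested genes), and its mirror in 2 (1.26% of tested genes). Both orders use the WT and KO counts that chose the members, so nothing is read from these shares. Apart from Asap3, these members had at most 14.05 counts in any control library.

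The remaining signalling genes had low counts. Dact3, a Wnt pathway inhibitor, had 46, 41 and 42 in KO and 40, 25 and 43 in KOL, and Camkk1, a kinase that acts on calcium-dependent kinases, had 32, 37 and 42 in KO and 17, 19 and 17 in KOL. Fbxl21, a ubiquitin ligase subunit that acts on the circadian clock, had 68, 42 and 56 in KO and 12, 19 and 18 in KOL. Rtkn2, a gene expressed in lymphocytes, had 41, 32 and 32 in KO and 6, 2 and 2 in KOL. It too entered the fit only through its KO counts, and its call against WTL ended without KOL replicate 1, WTL replicate 1 or WTL replicate 3.

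Of 5 proteins of the cytoskeleton and of sperm, Myo5b stood out with LPS. It encodes the vesicle motor of polarised epithelia, with 2, 10 and 6 counts in WTL, 82, 61 and 71 in KO, and 219, 211 and 203 in KOL (log2 fold change 5.06, SE 0.24, adjusted p = 1.17e-09, edgeR). Coro6, an actin-binding coronin of muscle and brain, had 5, 8 and 5 counts in WT, 0 in each WTL library, 46, 32 and 37 in KO, and 36, 35 and 23 in KOL, at least 30-fold higher than WTL. Slain1, a microtubule plus-end protein, had 48, 41 and 48 in KO and 30, 27 and 31 in KOL. Zpbp, a sperm protein that binds the egg coat, had 34, 38 and 31 in KO and 17, 23 and 19 in KOL. Plekhh1 had 43, 32 and 41 in KO and 20, 24 and 19 in KOL. Its call against WTL (log2 fold change 0.83, SE 0.31, adjusted p = 0.043, edgeR) ended without any one of the 6 WTL and KOL libraries (adjusted p from 0.0516 to 0.127). It also shares 992 exon bases with Pigh on the opposite strand, whose mean count was higher.

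The 4 members with the highest TPM in KO all share sequence with a more abundant gene, and their counts cannot be taken as their own expression. Gm28037 is a processed transcript at chr16:55966343-55980721, and 484 of its 611 exon bases lie on exons of Rpl24, a ribosomal protein gene of the same strand. A further 127 lie on exons of Zbtb11, also of the same strand. Gm28037 had 0, 0 and 0.39 counts in WT, 0 in each WTL library, 1561, 1824 and 1830 in KO, and 0, 0 and 4.42 in KOL. Rpl24 had 6629, 7025 and 6919 in WT and 5171, 4340 and 4451 in KO. Their sum, normalized, was 5987 ± 99 (SD, n = 3) in WT and 5926 ± 111 in KO, or 99.0% of WT, whereas Rpl24 alone stood at 72.0%. In KOL nearly all of the sum was again assigned to Rpl24.

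Gm13841 on chromosome 5 and Gm8210 on chromosome 1 are processed pseudogenes, DNA copies of a spliced messenger RNA. Their transcripts are identical over 483 bases, their counts are equal in every library, and both copy Rpl29, another ribosomal protein gene. Each had 0, 0.62 and 1.27 counts in WT, 212, 211 and 197 in KO, and 319, 239 and 335 in KOL. Rpl29 had 5005, 6471 and 6232 in WT and 4108, 3598 and 3821 in KO. The normalized sum of the 3 genes in KO was 76.8% of WT, and Rpl29 alone stood at 69.3%. In all, 27 annotated genes matched Gm13841 at 95% identity or more over at least 80% of its length. BC002163 on chromosome 16 copies Ndufs5, a subunit of respiratory complex I, over 319 bases. It had 7.32, 7.25 and 4.9 counts in WT, 90, 75 and 75 in KO, and 127, 59 and 160 in KOL, while Ndufs5 had 673, 755 and 694 in WT and 663, 635 and 684 in KO. Their normalized sum in KO was 110.3% of WT, and Ndufs5 alone stood at 99.3%.

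Within the stretch where copy and gene align, a read can be told apart only where it covers a differing base. Sequence beyond the ends of that stretch was not compared. The sequences below are GENCODE transcript sequences on GRCm38, with the differing base in capitals. They are shown since they hold all the bases that differ between these members and the copied genes within the aligned stretch. Positions count from 1 at the first base of the pseudogene's transcript, and the base of the copied gene is given first. Gm13841 and Gm8210 differ from Rpl29 at 3 positions, C72A, C300T and T423C, and BC002163 differs from Ndufs5 at 2, T81C and A105G. All 5 fall on the last base of a codon in the copied gene.
Gm13841 at chr5:115802074-115802102, minus strand: ggcatcaagaaaccAcggtcgcaaagata
Rpl29 over the same stretch: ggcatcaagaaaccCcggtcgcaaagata
Gm13841 at chr5:115801846-115801874, minus strand: ttcatcgctcacccTaagcttgggaagcg
Rpl29 over the same stretch: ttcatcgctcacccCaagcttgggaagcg
Gm13841 at chr5:115801723-115801751, minus strand: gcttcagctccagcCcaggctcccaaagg
Rpl29 over the same stretch: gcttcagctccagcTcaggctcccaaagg
BC002163 at chr16:42955697-42955725, plus strand: gcagaacagccctaCaagaacgccgctcg
Ndufs5 over the same stretch: gcagaacagccctaTaagaacgccgctcg
BC002163 at chr16:42955721-42955749, plus strand: gctcggtgccacgcGtttgaaaaagagtg
Ndufs5 over the same stretch: gctcggtgccacgcAtttgaaaaagagtg
Whether reads were assigned to the right copy was not tested. Without these 4 members, 46 of 47 were called higher in KOL than in WTL (12.5% of tested genes). The 46 still include H60b, Lrp3, Rtkn2, Rtn4rl1 and Trnp1. These entered the fit through their KO counts, so their calls rest on the choice of members.

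**Figure D4:**
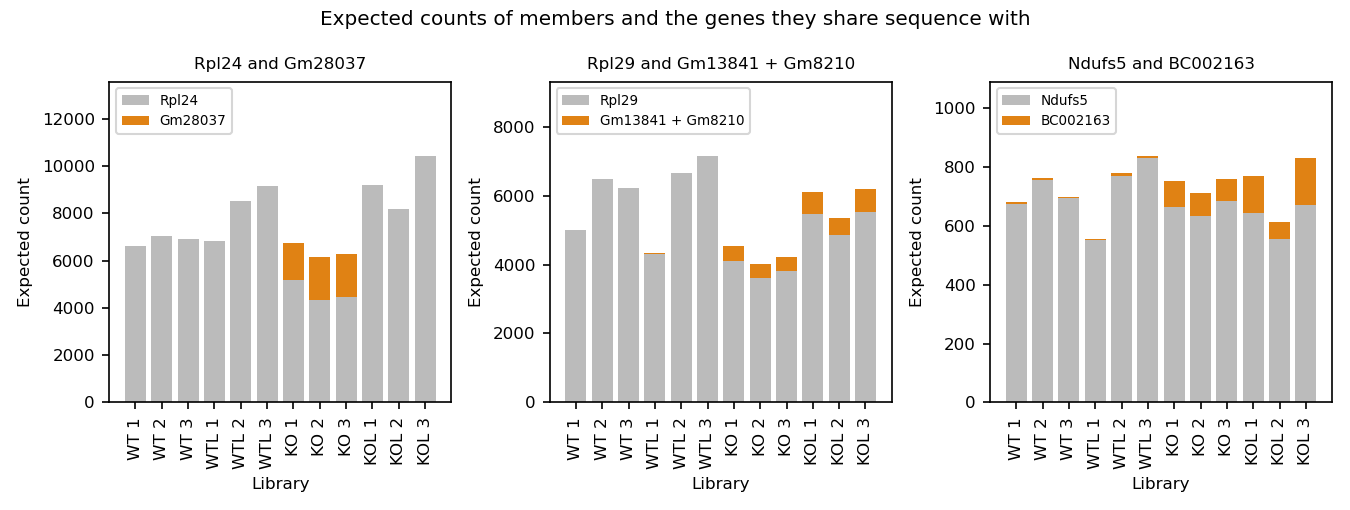
Expected counts per library of Rpl24, Rpl29 and Ndufs5 (grey) with those of Gm28037, Gm13841 plus Gm8210, and BC002163 stacked on top (orange). Gm28037 counts above 5 appear in the 3 KO libraries, beside a smaller Rpl24 share, and the pseudogene counts are larger in the 6 KO and KOL libraries than in the 6 WT and WTL libraries.

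The other 5 predicted genes had no copy at that identity. Gm6445, an unprocessed pseudogene on chromosome 19, had 3, 2 and 3 counts in WTL, 57, 37 and 32 in KO, and 248, 146 and 237 in KOL, 5.93 times the KO mean. Gm8300, a predicted protein-coding gene on chromosome 12, had 0, 0 and 1 in WTL, 37, 34 and 37 in KO, and 222, 179 and 254 in KOL, 7.20 times the KO mean and the highest such ratio. Gm42427 on chromosome 5 had 99, 103 and 96 in KO and 138, 126 and 112 in KOL. Gm26620, which shares 474 of 817 exon bases with Dusp12 on the opposite strand, had 68, 58 and 79 in KO and 12, 12 and 18 in KOL. Gm26826, annotated antisense to Foxj2, had 43, 63 and 67 in KO and 12, 16 and 12 in KOL. The study's methods describe strand-specific libraries, but Gm26826 had fractional counts in 7 libraries while its sum with Foxj2 was whole in all 12, so fragments were shared out between genes of opposite strands. Reads from the shared bases, 158 of 1395 in Gm26826, therefore cannot be told apart by strand.

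In all, 31 members overlapped at least 1 other annotated gene, and 20 overlapped none. Shared exon bases on the same strand were found for 5 (Gm28037, Cadm3, Egfl7, H60b and Gimap5), and on the opposite strand for 11. A same-strand gene with a higher mean count overlapped Gm28037 and BC002163, the latter within an intron of Zbtb20. An opposite-strand gene with a higher mean count shared exon bases with Egfl7 (Agpat2, 64 bases), Plekhh1, Gm26620 and Gm26826.

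Members rarely lay side by side. Rtkn2 and Zfp365 on chromosome 10, 66.9 kb apart and facing away from each other, were the one pair within 100 kb, and both were lower in each KOL than in each KO library. The nearest tested genes on either side of a member, within 200 kb and outside the list, numbered 78. Of these, 23 (29.5%) were called higher in KO than in WT, where 17.3% of tested genes were called, and 13 (16.7%) were called lower, where 17.2% were called. Some of the 23, such as Dipk1b (1.74, 1 and 1.92 counts in WT, 25, 33 and 25 in KO), entered the fit through the depleted groups. Among genes with 10 or more counts in a WT or WTL library, a limit chosen after the values were seen, 20 of 74 flanking genes (27.0%) and 16.1% of all tested genes were called higher. Over the 78, the median log2 fold change was 0.01, and that of all tested genes -0.01. With limma on log2(TPM + 1) the count called higher was 13 of 75 (17.3%), where 11.6% of the genes tested that way were called higher.

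The 4 higher neighbours given here were chosen for mention after their values were seen, and lay 0.2 to 34.5 kb away. Pde1b, a cyclic nucleotide phosphodiesterase 0.2 kb from Ppp1r1a, had 968, 1058 and 965 counts in WT and 2460, 2346 and 2385 in KO (log2 fold change 1.35, SE 0.08, adjusted p = 6.12e-09, edgeR). Ffar4, a fatty acid receptor 2.4 kb from Rbp4, had 103, 130 and 101 in WT and 387, 384 and 409 in KO. Galnt12, a glycosyltransferase 34.5 kb from Anks6, had 75, 65 and 90 in WT and 448, 418 and 434 in KO. Slamf8, a myeloid surface receptor 18 kb from Vsig8, had 281, 353 and 326 in WT and 1552, 1369 and 1444 in KO. The groups did not overlap for any of these 4. Other neighbours moved the other way. Cebpa, a myeloid transcription factor 78.1 kb from Lrp3, had 837, 997 and 919 in WT and 534, 448 and 485 in KO, and Acaa2, a mitochondrial enzyme 7.7 kb from Myo5b, had 574, 704 and 623 in WT and 316, 278 and 283 in KO.

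Promoter windows from RefSeq (GRCm38.p6, 250 bases before to 50 after a transcription start) were found for 32 members, 43 windows in all. Their median GC content was 66.7%, against 60.3% over 12865 windows of tested genes and 52.7% over all 32851 windows, and the median number of CG pairs was 24, 20 and 7. The CTCF core letters AGGNGGC, on either strand, were in 16 member windows (37.2%), in 39.2% of windows of tested genes and in 29.4% of all windows. The longer CTCF consensus was in none of the 43, in 0.762% of windows of tested genes and in 0.557% of all windows. TATAAA, on either strand, was in 4 member windows (9.3%), in 7.25% of windows of tested genes and in 13.6% of all windows. The member windows thus held the core about as often as those of tested genes. A match is a match of letters and says nothing about binding.

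The windows of 4 members that were higher in each KOL than in each KO library are printed to show the range of promoter types among genes that moved together. Lhx2 and Yap1 are rich in CG pairs (34 and 49 in 300 bases) and have the core letters. Lhx2 and Rbp4 each have a second window among the 43, and for Rbp4 that window has 5 CG pairs and no TATAAA. In the windows printed, Retnla has 2 CG pairs and a TATAAA that starts 30 bases before the transcription start, and Rbp4 has 40 CG pairs and a TATAAA that starts 28 bases before it. Capitals mark AGGNGGC or TATAAA on either strand.
Lhx2, chr2:38339031-38339330, plus strand: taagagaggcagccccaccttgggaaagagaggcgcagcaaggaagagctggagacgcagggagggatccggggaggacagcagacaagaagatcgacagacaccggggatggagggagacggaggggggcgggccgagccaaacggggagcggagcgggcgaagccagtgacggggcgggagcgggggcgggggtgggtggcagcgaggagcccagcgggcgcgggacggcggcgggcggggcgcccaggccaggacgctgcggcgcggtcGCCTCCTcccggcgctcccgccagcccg
Yap1, chr9:8004547-8004846, minus strand: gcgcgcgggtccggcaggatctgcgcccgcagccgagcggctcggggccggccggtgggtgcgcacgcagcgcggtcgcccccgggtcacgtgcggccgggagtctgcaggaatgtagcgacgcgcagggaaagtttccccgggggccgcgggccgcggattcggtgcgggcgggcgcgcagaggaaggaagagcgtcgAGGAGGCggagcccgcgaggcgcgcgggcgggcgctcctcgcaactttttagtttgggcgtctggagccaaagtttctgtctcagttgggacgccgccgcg
Retnla, chr16:48842359-48842658, plus strand: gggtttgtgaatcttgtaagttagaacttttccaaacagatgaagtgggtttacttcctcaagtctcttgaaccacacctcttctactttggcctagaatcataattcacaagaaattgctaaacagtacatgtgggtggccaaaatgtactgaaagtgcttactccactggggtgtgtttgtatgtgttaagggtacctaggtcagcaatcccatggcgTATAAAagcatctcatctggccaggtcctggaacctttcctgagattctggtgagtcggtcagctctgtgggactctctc
Rbp4, chr19:38124762-38125061, minus strand: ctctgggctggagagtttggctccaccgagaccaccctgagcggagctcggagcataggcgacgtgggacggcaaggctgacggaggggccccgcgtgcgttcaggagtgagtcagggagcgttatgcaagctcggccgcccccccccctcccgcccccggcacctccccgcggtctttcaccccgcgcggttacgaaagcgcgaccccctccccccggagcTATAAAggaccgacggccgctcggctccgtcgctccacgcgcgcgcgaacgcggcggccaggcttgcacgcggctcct
The core match of Lhx2 lies 23 bases after the start and that of Yap1 starts 51 bases before it.

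The edges of the rule cut through a continuum. Just inside it, Macrod2 had 8, 8 and 8 counts in WT, Ttpa 8, 8 and 7, and Zpbp, Coro6, Trnp1, H60b, Dact3, Cadm3, Zfp365 and Myo5b reached 8 in 1 WT library. The lowest KO counts inside were 30 in Trnp1, 31 in Zpbp and 32 in Camkk1, Coro6, Rtkn2, Gm6445 and Plekhh1. Just outside on the WT side were Trim43c (highest WT count 8.27, lowest KO count 147), Gm4349 (8.39 and 40.4), and Ppm1l, Ryk and Zfp334, each with 9 in a WT library. Just outside on the KO side were Gnai1 and Tmem102 with a lowest KO count of 29, Cygb with 28.5, Gm10644 with 27.1 and Gm6093 with 27.0. Gm6093 had 399, 306 and 343 in KOL against 41, 61 and 58 in WTL.

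Gene lists around the named members gave their relatives, and their counts stand beside the 17.3% of tested genes called higher and 17.2% called lower in KO against WT, and 12.5% in each direction in KOL against WTL. Lhx2, Rbp4 and Elavl4 are members, so the rule fixed that they count as higher in KO. Of 24 tested homeobox and LIM partner genes, 5 were called higher in KO than in WT and 10 lower. Beside Lhx2, the higher ones were Hoxb3 (mean TPM 0.55 in WT and 3.53 in KO), Hoxb4, Meis3 and Zfhx3. In KOL against WTL, 4 were higher and 4 lower. Of 16 tested retinoic acid response genes, 6 were higher in KO than in WT and 4 lower. Aldh1a2, which makes retinoic acid from retinal, had a mean TPM of 32.6 in WT and 255 in KO (log2 fold change 3.06, SE 0.15, adjusted p = 7.89e-10, edgeR), and Tgm2 fell from 39.7 to 6.40. With LPS, 5 were higher in KOL than in WTL and 4 lower, with Aldh1a2 at 46.8 in WTL and 312 in KOL.

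Of 16 tested neuronal genes, 11 were called higher in KO than in WT and 1, Cacna1b, lower. Setting Elavl4 aside leaves 10 of 15 called higher, with a median log2 fold change of 0.80. Some, such as Stx1a (1, 0 and 0 counts in WT, 10, 15 and 18 in KO), had few counts outside KO and KOL, so the filter on low counts let them in through the depleted groups. The higher ones included Elavl4, Camk2a (mean TPM 0.69 in WT and 6.40 in KO) and Nrxn2 (1.18 and 4.03). In KOL against WTL, 8 were higher and 1 lower. Of the 68 genes on that list, 54 stayed under 1 TPM in every library. Of 6 tested germline genes, 2 were higher in KO than in WT (Dazl and Dnmt3l) and 1 lower, and in KOL against WTL 2 were higher and 1 lower. Only 2 of 57 clustered protocadherin genes could be tested, and neither was called in either comparison by edgeR. All 32 Polycomb subunit genes, whose products keep developmental genes silent, were tested. Of these, 5 were higher and 11 lower in KO than in WT, and 4 were higher and 2 lower in KOL than in WTL. Ezh2 was among the lower in KO (mean TPM 37.0 in WT and 18.4 in KO) and was not called in KOL against WTL. Eed was among the higher in both comparisons (mean TPM 66.8 in WT and 101.9 in KO). These lists were drawn up with earlier results of these data known.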

How the data were processed

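Expected counts and TPM were used as deposited: the authors aligned reads to mm10 with STAR (the submitters' processing notes and the study name different versions) and estimated expected counts and TPM per gene with RSEM. The labels name ribosomal RNA depletion and the study's methods strand-specific poly(A) libraries, and counts were shared out between genes of opposite strands. Gene positions came from GENCODE M21 on GRCm38, where 55154 of 55335 gene IDs matched without their version.

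Rounded expected counts of all 12 libraries were fitted together with edgeR 4.0.16 (R 4.3.3), with TMM factors, filterByExpr by group and 1 mean per group. Calls needed an adjusted p under 0.05 and a fold above 1.5 (KOL against WTL) or 1.3 (KO against WT). Alternatives used DESeq2 1.42.0 and limma 3.58.1, the latter on genes with TPM of at least 1 in at least 3 libraries. Copies were found with BLAST+ 2.17.0. Tables and figures used Python 3.11.15, pandas 2.3.3, numpy 2.4.6, scipy 1.17.1 and matplotlib 3.10.9. The fits were run on simulated counts as a self-test. The members and lists were chosen with earlier results of these data known.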

Additional observations from a re-analysis of the deposited data

Results flagged for a closer look

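In 9 members the libraries with LPS lay on opposite sides in the 2 genotypes. The difference between genotypes was not tested, and both sides are set against the WT and KO counts that chose the members. While each WTL library was above each WT library, the ratio of the KOL mean to the KO mean (normalized counts) was 0.716 in Elavl4, 0.467 in Asap3, 0.791 in Rbm11, 0.203 in Kirrel, 0.764 in Slain1, 0.569 in Camkk1 and 0.661 in Plekhh1. While each WTL library was below each WT library, the ratio was 1.873 in Macrod2 and 1.359 in Acvr1c. Apart from Asap3, these genes had at most 14.05 counts in any control library.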

How the results depend on the processing

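Of 592 values of 41 named results under other settings, 550 kept their call and direction, 42 lost the call and none turned. The 41 are members taken by a rule, and this tally leaves out the other 10. These are Clic6, Fbxl21, Kcna2, Kirrel, Lrp3, Rbm11, Rtn4rl1, Slain1, Smo and Vsig8. Of them, Lrp3 and Rtn4rl1 entered the fit through their KO counts. In 32 of the 41 results, no setting under which the member was tested ended the call. Not every setting tested every member, and Acvr1c, for example, has no value with limma. Members called higher in KOL than in WTL numbered 49 (12.5% of all tested genes), 47 with DESeq2 (6.27%), 43 of 45 tested with the 6 LPS libraries alone (12.4%), 44 against a fold of 1.5 by glmTreat (7.34%), 48 with no filter (7.19%), 40 with a mean of at least 10 counts (12.5%), and 40 and 34 with limma on log2(TPM + 0.1) and log2(TPM + 1) (9.88% and 8.47%). The shares with DESeq2 and with no filter are over 27287 genes, and that of the main fit over 14008, so they cannot be set side by side. Over all genes, DESeq2 called 1712 higher and the main fit 1751. The mean-count and limma settings have filters of their own and can leave members untested, as limma did Acvr1c. The lower counts there need not all be lost calls. Leaving out a library gave 46 to 47 (11.4% to 12.8%). The 1 member called lower, Asap3, was 0 with DESeq2, with the 6 libraries alone, with glmTreat, with no filter and with limma on either scale, and 0 to 1 on leaving out a library. Flanking genes called higher numbered 23 of 78, and 13 of 75 with limma on either scale (17.3%, against 11.1% and 11.6% of all tested genes). Without a library they numbered 20 to 22, against 14.3% to 15.7% of all tested genes. Those called lower numbered 13 of 78, and 10 to 13 without a library (15.1% to 17% of all tested genes). With limma on log2(TPM + 0.1) and log2(TPM + 1), 12 and 11 of 75 were called lower (18.9% and 18.8% of all tested genes). Within 50 kb, 21 were called higher and 9 lower. Fewer flanking genes than 78 lie within 50 kb, so these are not shares of 78. The rule gave 51 members on normalized counts, 15 with limits of 4 and 60, 111 with limits of 16 and 30, 54 with the dropped symbols kept, and 51 to 61 without a library.

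With replicate number as a replicate block, 47 members were called higher and 0 lower (12.2% of all tested genes each), and flanking genes numbered 23 and 13 (16.8% and 16.7%). Correlations between libraries of the same number were -0.287, -0.121 and 0.113 for WTL and KOL, and -0.034, -0.037 and 0.012 for WT and KO, so numbers were not used as pairs.

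The members were selected on WT and KO counts, so their difference between those groups carries no test. The tests with LPS come from cells of the same genotypes, and in the main fit their spread was estimated with the WT and KO libraries included. Each group holds 3 libraries. Many members had under 10 counts in a control library, where a fold rests on few reads. Reads shared with ribosomal protein genes and genes on the opposite strand were not reassigned. CTCF binding and chromatin contacts were not analysed here. The study's text gives 4-hydroxytamoxifen to KO and not WT cells, and the drug and the loss of CTCF then cannot be told apart.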

Other observations

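Marker lists of other cell types were read in the same fits. Of 5 tested neutrophil markers, 5 were called lower in KO than in WT and 4 lower in KOL than in WTL, and their summed TPM was 398, 372 and 388 in WT, 208, 225 and 192 in KO, 434, 345 and 438 in WTL, and 285, 331 and 323 in KOL, with S100a8 the most abundant. Of 10 dendritic and myeloid markers, 3 were higher and 3 lower in KO than in WT, and 0 were higher and 3 lower in KOL than in WTL. Of 3 endothelial markers tested, 1 was higher and 1 lower in each of the comparisons. Of 3 fibroblast markers, 1 was higher in KO and 1 lower in KOL. The basophil marker tested, Cd200r3, was higher in both, as was 1 of 2 eosinophil markers. Untested basophil markers had few counts. Prss34 had 3, 4 and 1 in WT, 3, 6 and 5 in WTL, and 0 in each KO and KOL library. Mcpt8 had 1, 1 and 2 in WT, 1, 1 and 0 in KO, 0, 1 and 6 in WTL, and 0 in each KOL library. The mast cell marker tested was lower in KO and not called with LPS, the B cell marker was lower in both, and the NK cell marker was called higher in KOL and not called in KO. Of 3 megakaryocyte markers, 2 were lower in KO and 0 were called with LPS. Of 2 osteoclast markers, 1 was lower in both. Of 3 Langerhans cell markers, 2 were lower in KO, and 1 was higher and 2 lower in KOL. No T cell or erythroid marker passed the filter. The part of these cells in the members' values was not tested.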
